A study of Mus musculus with 14 samples.

Results

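The loci of 8 genes of the mouse pluripotency network were examined for transcription factor (TF) binding during the differentiation of embryonic stem (ES) cells into blood. The genes were Pou5f1, Nanog, Sox2, Esrrb, Zfp42, Tbx3, Prdm14 and Lin28a. A locus was the RefSeq span of the gene on GRCm38 with 20 kb added on each side, and every peak that overlapped this window by at least 1 bp was counted. Of 158488 peaks in all lists, 28 lay in these 8 windows, out of the windows of 21774 coding genes. The rule for the windows used gene names and not peaks, although the genes were picked with earlier results of these data known.

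The peaks came from chromatin immunoprecipitation followed by sequencing (ChIP-seq) with antibodies against 7 TFs, namely PU.1 (the product of Spi1), C/EBPβ, RUNX1, the repressor GFI1B, GATA1, GATA2 and the ETS factor ELK4. All cells were derived in culture from 1 ES cell line of strain 129, which carried a green fluorescent protein (GFP) reporter of Brachyury (Bry) and was kept on feeder fibroblasts before differentiation. Mesoderm (MES) was sorted as Bry.GFP+ FLK1-, hemangioblast (HB) as Bry.GFP+ FLK1+, hemogenic endothelium (HE) as Bry.GFP+ Tie2+ cKit+ CD41-, and hematopoietic progenitors (HP) as CD41+. Macrophages (MAC) were CD11b+ cells that had been grown out from CD41+ cells. The 14 lists covered MES (C/EBPβ, ELK4), HB (C/EBPβ, GATA2), HE (C/EBPβ), HP (C/EBPβ, GATA1, GATA2, GFI1B, RUNX1, PU.1) and MAC (C/EBPβ, RUNX1, PU.1). Undifferentiated ES cells were not analysed here. Each factor had 1 list per stage, so there were no replicates, and no test between stages or factors was made. A peak is a position only, with no height, and the lists ranged from 72 peaks (MAC RUNX1) to 82866 peaks (MAC PU.1). Each list was called at a threshold set for it, so each was read on its own. A gene without a peak is therefore a gene at which none passed the threshold of that list. Positions hold no expression values, and the sorted identities could not be checked against marker genes.

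The pluripotency network keeps ES cells able to form every tissue of the embryo. OCT4 (the product of Pou5f1), SOX2 and NANOG bind together at enhancers, including those of their own genes, and OCT4 and SOX2 do so as partners on adjoining DNA motifs. ESRRB, TBX3, PRDM14 and REX1 (the product of Zfp42) belong to the naive state of the early embryo, and LIN28A is an RNA-binding protein that blocks the maturation of let-7 microRNAs. The network is shut down in the course of differentiation, but OCT4 binding was still found in MES. The paper chose TFs by the cell type that expressed them, and it lists OCT4 peaks in MES. Those OCT4 peaks were not analysed here. C/EBPβ and PU.1 are factors of the myeloid lineage and are abundant in macrophages.

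The sequences under the peaks are given first for the sites where the bound factor's own consensus was found, since these are the places where peak and DNA sequence could be compared directly. Each is the GRCm38 sequence from RefSeq, 5′ to 3′, on the strand that reads as the consensus, with 10 bases on each side of it and the consensus in capitals. Where a peak held the consensus more than once, the site nearest to the peak centre is shown. The letters searched, on both strands, were GAGGAAGT for PU.1, TTGCNNAA for C/EBP and AATCNNNGC for GFI1B.
Esrrb intron, PU.1 in HP and MAC (chr12:86394841-86394868, minus strand): tgaaggaaaaGAGGAAGTgccagcgtcc
Esrrb intron, PU.1 in MAC (chr12:86484762-86484789, plus strand): gatctgtcaaGAGGAAGTggcagcctgc
Sox2ot intron downstream of Sox2, PU.1 in MAC (chr3:34659372-34659399, minus strand): gaggaggaaaGAGGAAGTcctggggcct
Tbx3 3′ UTR, PU.1 in MAC (chr5:119683826-119683853, plus strand): cggcaaccagGAGGAAGTggggtaaaag
Esrrb intron, C/EBPβ in HB and MAC (chr12:86453796-86453823, plus strand): aaatcctgaaTTGCGTAAcagctgcatc
Sox2ot intron downstream of Sox2, C/EBPβ in MAC (chr3:34659057-34659084, plus strand): atctgggctaTTGCGTAAggttacagtc
Esrrb intron, GFI1B in HP (chr12:86439335-86439363, minus strand): aggaaactagAATCTCTGCagctccatgt
Tcf19 beside Pou5f1, GFI1B in HP (chr17:35516418-35516446, plus strand): agcctccgacAATCTGTGCaaggcaaagc

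Longer stretches are given for a pair of peaks. The first shows the middle 150 bp of the HB C/EBPβ peak in the Esrrb intron, where the C/EBP consensus and an octamer, the motif of POU factors such as OCT4 (ATGCAAAT, read here from the other strand), lay in the same peak, and both are in capitals. The second shows the middle 150 bp of the MES ELK4 peak upstream of Lin28a, in which none of the letters searched was found, so that it has no capitals. Both are on the plus strand.
Esrrb intron, C/EBPβ in HB (chr12:86453741-86453890): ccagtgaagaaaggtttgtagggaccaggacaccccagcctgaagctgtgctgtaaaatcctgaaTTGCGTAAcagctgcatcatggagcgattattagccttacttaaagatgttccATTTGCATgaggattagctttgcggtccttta
Upstream of Lin28a, ELK4 in MES (chr4:134020739-134020888): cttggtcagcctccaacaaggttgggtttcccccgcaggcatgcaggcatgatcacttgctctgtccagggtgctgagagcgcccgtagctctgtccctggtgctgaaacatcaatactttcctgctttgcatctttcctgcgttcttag

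At the 8 loci, 17 of the 112 combinations of gene and list had a peak (15.2%). Over all coding genes the mean of the same share across lists was 17.7%, so the pluripotency loci were close to the background as a group. Most of the 28 peaks came from the longest lists, MAC PU.1 and MAC C/EBPβ, which hold 82866 and 55471 of all 158488 peaks. They gave 22 of the 28 peaks and 11 of their 16 combinations. Of coding genes, 79.1% had a MAC PU.1 peak and 73.8% a MAC C/EBPβ peak. The other 12 lists gave 6 peaks in 6 of 96 combinations (6.25%), against 7.88% for coding genes. No peak of 8 lists lay at any of the genes. Nanog and Zfp42 had no peak in any list, as did 3959 coding genes (18.2%). Esrrb was the only one of the 8 with a peak in 4 or more lists, which 24.1% of coding genes had.

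**Figure D1:**
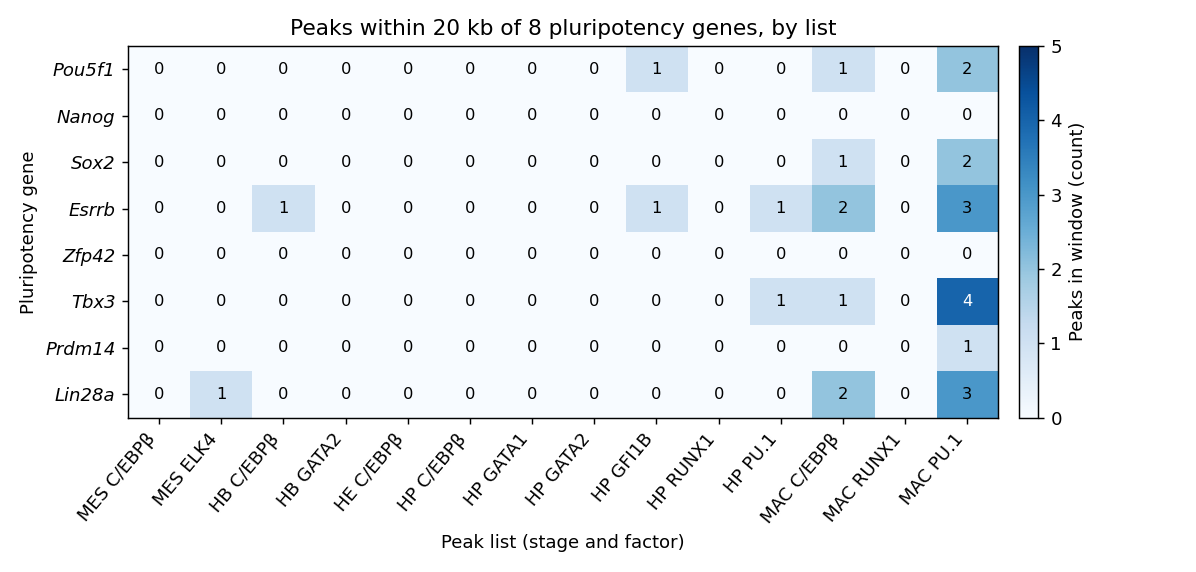
Number of peaks in the window of each pluripotency gene (rows) in each of the 14 lists (columns, stage and factor); color gives the count. The MAC PU.1 column holds 15 peaks and the MAC C/EBPβ column 7, while the rows of Nanog and Zfp42 are empty.

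Read list by list, each count was set beside the share of all coding genes with a peak of that list in the same kind of window. In MES, ELK4 had a peak at 1 of the 8 genes (background 4.66%), and C/EBPβ at 0 (6.47%). In HB, C/EBPβ had a peak at 1 (4.24%) and GATA2 at 0 (0.363%), and in HE C/EBPβ had a peak at 0 (0.684%). In HP, PU.1 had a peak at 2 of the 8 genes (38.2%), and GFI1B also at 2 (11.8%). C/EBPβ, RUNX1, GATA2 and GATA1 had none at this stage, with backgrounds of 14.8%, 7.79%, 3.36% and 1.75%. In MAC, PU.1 had a peak at 6 of the 8 genes (79.1%), C/EBPβ at 5 (73.8%) and RUNX1 at 0 (0.478%). With 8 genes, 1 gene is 12.5%. In number of genes, the count of each list differed from 8 times its background by at most 1.18, the value of HP C/EBPβ.

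Pou5f1 encodes OCT4 and is a core gene of the pluripotent state. It spans chr17:35506032-35510777 on the plus strand, and its window held 4 peaks from 3 lists. All of them lay between 10413 and 14111 bp downstream of its start site, beyond its end, and none had Pou5f1 as the nearest coding gene. The HP GFI1B peak (chr17:35516246-35516645) was 379 bp from the start site of Tcf19. The MAC PU.1 peak at chr17:35516437-35516836 was 188 bp from the same start site, in an intron of Tcf19. The MAC C/EBPβ peak (chr17:35516759-35517158) fell between the genes, 91 bp from the start of Cchcr1 and 121 bp from that of Tcf19. These 3 peaks chained into 1 region of 913 bp, although the GFI1B peak itself did not overlap the C/EBPβ peak. A second MAC PU.1 peak (chr17:35519944-35520343) lay 1001 bp from the start of a predicted Cchcr1 transcript and 2890 bp from the nearest curated Cchcr1 start. No list had a peak in Pou5f1 or upstream of it within the window. Thus the peaks counted for Pou5f1 all lay within 1001 bp of a start site of its neighbours Tcf19 and Cchcr1. With curated transcripts only, this limit was 2890 bp.

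Sox2, the HMG-box partner of OCT4, spans chr3:34649995-34652461 on the plus strand inside an intron of the long non-coding gene Sox2ot. Its window held 3 peaks, all from macrophages, all downstream of the gene, and with Sox2 as the nearest coding gene for each. The MAC C/EBPβ peak (chr3:34658847-34659246) was centred 9051 bp downstream of the Sox2 start site. A MAC PU.1 peak (chr3:34659183-34659582) was centred 9387 bp downstream, so that the centres of the pair were 336 bp apart and the peaks overlapped at their edges only. Each of them held the consensus of its own factor, at 24 bp from the centre for C/EBPβ and 3 bp for PU.1. The remaining MAC PU.1 peak (chr3:34670956-34671355) was centred 21160 bp downstream and held no PU.1 consensus. No peak of MES, HB, HE or HP was found in the window. In HP, the nearest PU.1 peak to Sox2 was 1083 kb away, and 4.54% of coding genes were farther from a peak of this list.

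Nanog encodes a homeobox factor of the core network and spans chr6:122707489-122714633 on the plus strand. None of the 14 lists had a peak in its window. Taking the nearest peak of each list, the closest was that of MAC PU.1 at 33.9 kb downstream, with another MAC PU.1 peak at 34.5 kb, and those of MAC C/EBPβ and HP RUNX1 were both at 35.2 kb. These peaks lay within 1350 bp of the start of Slc2a3, which encodes the glucose transporter GLUT3. On the other side, the closest HP PU.1 peak was 52.9 kb upstream, and its nearest coding gene was Dppa3.

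Esrrb encodes an orphan nuclear receptor that sustains self-renewal in ES cells, and had the most lists and the most peaks of the 8 genes. It spans chr12:86361117-86521628 on the plus strand, so that its window of 201 kb was the longest of the 8, whose median was 52.8 kb. All 8 of its peaks were in introns and had Esrrb as the nearest coding gene. None was nearer than 33732 bp to the 5′ end of the annotated gene, although 1 MAC PU.1 peak (chr12:86421831-86422230) was centred 386 bp from an internal Esrrb start site.

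PU.1 was found in HP at chr12:86394650-86395049 and in MAC at chr12:86394651-86395050, with the centres 1 bp apart. Over all HP PU.1 peaks shared with MAC the median distance between centres was 13 bp, and 92.5% had a larger one. The PU.1 consensus lay 5 bp from the HP centre and 4 bp from the MAC centre. The HP peak was line 187 of 10943 in its list, within the first 1.71%, and the MAC peak was within the first 12.5%. What the order of lines stands for is not given in the sources used here.

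C/EBPβ was found at another place of Esrrb, in HB at chr12:86453616-86454015 and in MAC at chr12:86453611-86454010, with the centres 5 bp apart. The letters TTGCGTAA lay 6 bp upstream of the HB centre and 1 bp upstream of the MAC centre. A second C/EBP match, TTGCTGAA, lay 94 bp downstream of the HB centre and 99 bp downstream of the MAC centre. The octamer lay 47 bp downstream of the HB centre. In the whole HB C/EBPβ list 1.96% of peaks held an octamer and in the MAC list 2.28%, and these 2 peaks on the same site were the only ones of the 28 with an octamer. The same place was not in the HP C/EBPβ or HE C/EBPβ lists, and the MES C/EBPβ list had no peak in the window. The HE list holds 132 peaks in all, and each list had its own threshold. The HB C/EBPβ peak was the only one from HB at any of the 8 loci. For the HB and MES C/EBPβ samples the paper lists no enrichment by quantitative PCR before sequencing.

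GFI1B, a repressor of blood progenitors, had a peak in HP at chr12:86439131-86439530, between these sites, with its consensus 18 bp from the centre. No other list had a peak at this place. Finally, a MAC C/EBPβ peak (chr12:86484534-86484933) and a MAC PU.1 peak (chr12:86484592-86484991) had centres 58 bp apart and shared a PU.1 consensus, which was 16 bp from the PU.1 centre and 42 bp from the C/EBPβ centre.

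Tbx3 encodes a T-box factor that acts in self-renewal and later in the patterning of limbs and heart. It spans chr5:119670534-119684724 on the plus strand and held 6 peaks, all with Tbx3 as the nearest coding gene. It was the only one of the 8 genes with a peak across its annotated 5′ end, a MAC PU.1 peak (chr5:119670395-119670794) centred 60 bp downstream of it. A MAC C/EBPβ peak (chr5:119670650-119671049) began just inside the gene and was centred 315 bp downstream, 13 bp from another Tbx3 start site. Neither held the consensus of its factor. The other MAC PU.1 peaks were 14112 bp upstream, in the 3′ UTR at 13307 bp, and 17949 bp downstream. The one in the 3′ UTR (chr5:119683642-119684041) had a PU.1 consensus 2 bp from its centre. The one 17949 bp downstream had its counterpart in HP, where a PU.1 peak (chr5:119688282-119688681) was centred 2 bp away. This pair lay in an intron of the antisense gene Tbx3os2, and neither peak held the PU.1 consensus.

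Prdm14 encodes a zinc finger protein of naive ES cells and primordial germ cells, and Zfp42 encodes REX1, a widely used marker of naive ES cells. Prdm14 (chr1:13113428-13127163, minus strand) had a single peak, that of MAC PU.1 at chr1:13125083-13125482, in a coding exon 1881 bp downstream of its start site. Zfp42 (chr8:43295067-43307009, minus strand) had no peak in any list. The closest to it were MAC C/EBPβ and MAC PU.1 peaks 61.7 kb upstream, with Zfp42 as the nearest coding gene of both. A further MAC PU.1 peak lay 78.3 kb downstream, nearest to Triml2. The nearest MES C/EBPβ peak was 109 kb upstream, also with Zfp42 as the nearest coding gene. For MES C/EBPβ, 84.5% of coding genes were farther from a peak of the list than Zfp42 was.

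Lin28a was the only one of the 8 genes with a peak in MES. It spans chr4:134003330-134019196 on the minus strand. The peak was that of ELK4, an ETS-domain partner of serum response factor, at chr4:134020614-134021013, centred 1617 bp upstream of the Lin28a start site, between genes, and with Lin28a as the nearest coding gene. Of coding genes, 98.3% were farther from an ELK4 peak. The peak lacked the ELK4 consensus CCGGAAGT, as did most ELK4 peaks (9.35% of them held it). The other 5 peaks were from macrophages and lay inside the gene or beyond its 3′ end. A MAC PU.1 peak (chr4:134005603-134006002) and a MAC C/EBPβ peak (chr4:134005639-134006038) were centred 36 bp apart in the 3′ UTR. Dhdds, an enzyme gene of dolichol synthesis, starts beyond the 3′ end of Lin28a. A MAC C/EBPβ peak (chr4:134002197-134002596) was 1439 bp from the start of a predicted Dhdds transcript and 1514 bp from its nearest curated start. A MAC PU.1 peak (chr4:134000486-134000885) was 197 bp from the curated Dhdds start. The last MAC PU.1 peak (chr4:134012264-134012663) was inside Lin28a, 1276 bp from an internal start site of a predicted transcript. The nearest curated Lin28a start was 6353 bp away. By nearest start site, 2 of the 6 peaks belonged to Lin28a and 4 to Dhdds.

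**Figure D2:**
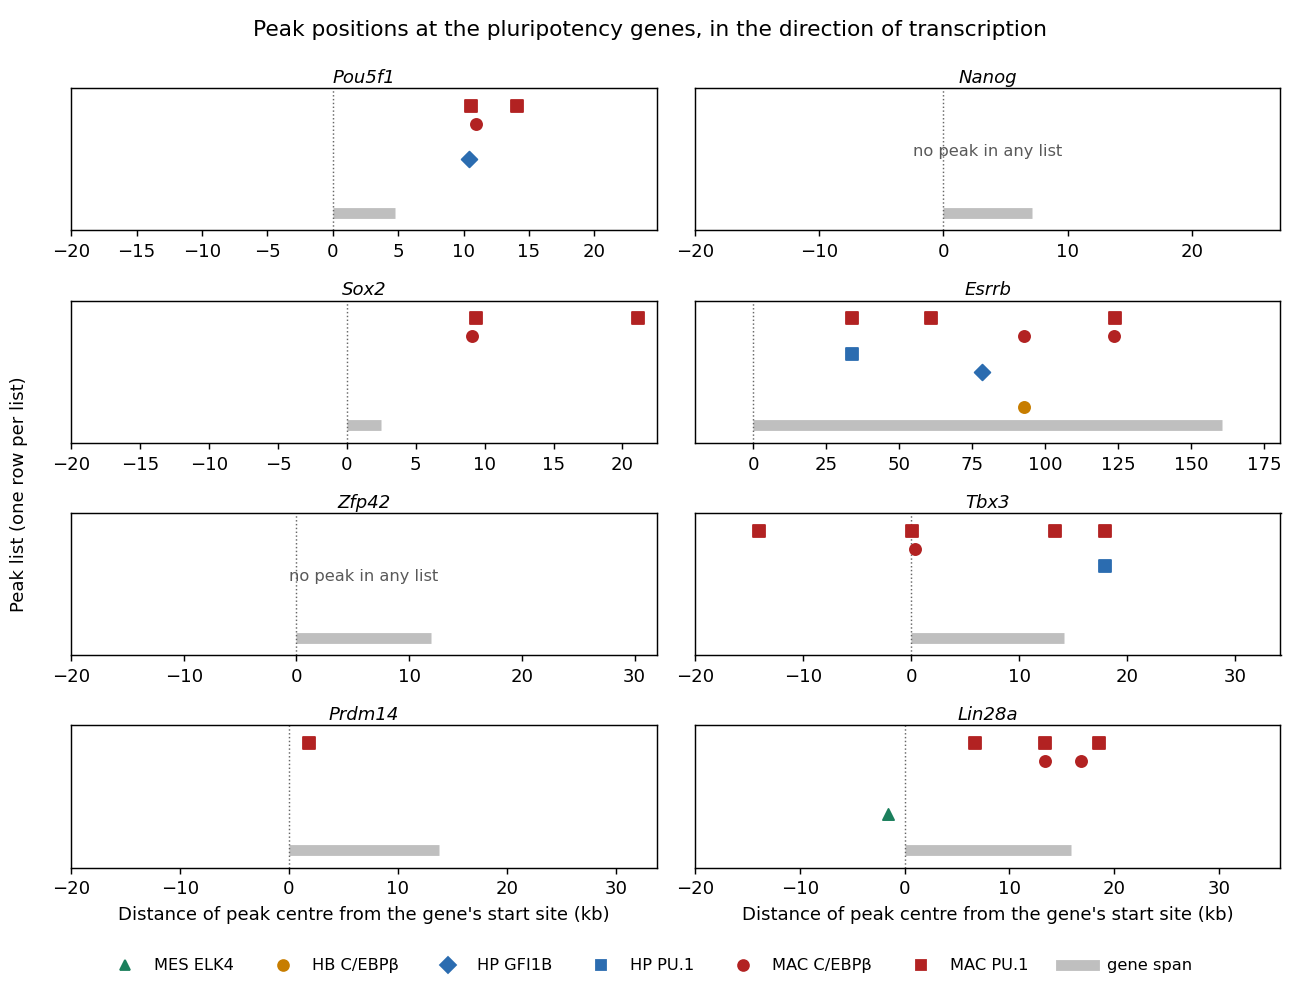
Distance of each peak centre from the annotated start site of the gene, in kb and in the direction of transcription, with 1 panel per gene and 1 row of symbols per list; the grey bar is the gene and each panel spans 20 kb on both sides, so that scales differ. At Pou5f1 all symbols lie beyond the gene, at Esrrb all lie inside it, and only at Tbx3 do symbols sit on the start site.

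Over the 8 loci, 20 of the 28 peaks had the gene itself as the nearest coding gene (71.4%, exact Clopper-Pearson 95% interval 51.3% to 86.8%, which covers counting error only and treats overlapping peaks as separate). Over all coding windows this share was 58.6%, with a peak counted in each window it lay in. When non-coding genes could also own a peak, the share at the 8 loci was 53.6%, and that over all coding windows was not computed. The 8 exceptions were the 4 peaks beside Pou5f1 and 4 in the Lin28a window, of which 2 were in the Lin28a 3′ UTR and 2 beyond the gene. If these were left out, 13 of the 112 combinations had a peak. Of the 28 peaks, 15 were centred inside the gene, 11 downstream and 2 upstream, and 4 were within 2 kb of the gene's start site. Esrrb alone gave 8 of the 15 inside.

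The 28 peaks formed 19 separate regions. Of these, 11 were in 1 list (57.9%, against 72% of all 117293 regions) and 7 in 2 lists (36.8% against 22.6%). The remaining 1, beside Pou5f1, was in 3 lists (5.26% against 4.35%). Both HP PU.1 peaks were also in the MAC PU.1 list, as were 97% of all HP PU.1 peaks. In the other direction, 2 of 15 MAC PU.1 peaks were in HP (13.3%), against 12.8% of the whole MAC list. The only HB C/EBPβ peak was also in MAC, as were 68.8% of that list. Of the 7 MAC C/EBPβ peaks, 5 overlapped a MAC PU.1 peak by at least 1 bp (71.4%, exact 95% interval 29% to 96.3%), against 42.5% in the whole list. This count fell to 2 when an overlap of 200 bp was required, against 35.6% in the whole list. The centres of the 5 pairs were 322 bp (Pou5f1), 336 bp (Sox2), 58 bp (Esrrb), 255 bp (Tbx3) and 36 bp (Lin28a) apart, and the median in the whole list was 65 bp. Thus 3 of the 5 pairs touched at their edges rather than at a common centre.

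For macrophages the number of peaks per length was also set beside the rest of the genome. The 8 windows held 27.2 MAC PU.1 peaks per Mb, against 55.3 in the windows of all coding genes and 30.4 over the genome. For MAC C/EBPβ the values were 12.7, 34.8 and 20.4 per Mb. Without Esrrb, whose window made up the largest share of the length, the 7 remaining loci held 34.3 and 14.3 per Mb. On both counts the loci were below the level around coding genes, and for MAC C/EBPβ they were below the genome as a whole. For MAC PU.1 the order against the genome depended on whether Esrrb was included.

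The consensus of the bound factor was found in 10 of the 28 peaks (35.7%, exact 95% interval 18.6% to 55.9%), each time within the central 200 bp. This interval treats overlapping peaks as separate. The Esrrb PU.1 site of HP and MAC and the Esrrb C/EBP site of HB and MAC were each counted in 2 peaks. The own consensus was in both GFI1B peaks, where 44.9% of that list held it, and in 1 of 2 HP PU.1 peaks (42.1% of that list). It was in the HB C/EBPβ peak (59.2%), in 2 of 7 peaks of MAC C/EBPβ (41.9%), and for MAC PU.1 in 4 of 15 (24.4%). In promoters of the RefSeq table, which are 300 bp long, GAGGAAGT was in 3.2%, TTGCNNAA in 10.8%, AATCNNNGC in 10.3%, CCGGAAGT in 3.89% and the octamer in 1.74%. Peaks are 400 bp long and hold more matches by length alone. GAGGAAGT and CCGGAAGT overlap in GGAAGT. The other letters searched were TGTGGTT for RUNX and AGATAA for GATA, with promoter shares of 5.27% and 11.2%. TGTGGTT was in 0 of the 28 peaks, against 10.3% of the whole MAC PU.1 list and 11.1% of the MAC C/EBPβ list. AGATAA was in 2 of 15 MAC PU.1 peaks (17.3% of that list) and 0 of 7 MAC C/EBPβ peaks (17.5%). A match describes the sequence and is not evidence of which protein was bound, and a missing match says only that these letters were not in the peak.

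To place the 8 loci among other genes of early development, 30 further pluripotency genes and 16 genes of mesoderm and blood were counted in the same way. The 30 pluripotency genes had a peak in 71 of 420 combinations (16.9%), again close to the 17.7% of coding genes. Outside the MAC PU.1 and MAC C/EBPβ lists they had 20 of 360 (5.56%), against 6.25% for the 8 and 7.88% for coding genes. The 8 mesoderm regulators had 9 of 96 outside those lists (9.38%), 4 of them at Gsc, a homeobox gene of the organizer. The 8 blood stem cell regulators had 34 of 96 (35.4%), led by Runx1 with peaks in 9 of these 12 lists, Tal1 in 8 and Gfi1b in 6. The gap between the pluripotency loci and the blood regulators was present in every HP list but varied in size. C/EBPβ had peaks at 7 of 8 blood regulators and 0 of the 8 pluripotency genes (14.8% of coding genes). PU.1 had peaks at 6 and 2 (38.2%), GFI1B at 4 and 2 (11.8%), GATA1 at 3 and 0 (1.75%), GATA2 at 3 and 0 (3.36%) and RUNX1 at 2 and 0 (7.79%). The windows of the blood regulators were longer, with a median of 119 kb against 52.8 kb, and the part of window length in the gap was not tested. The blood regulators were also chosen with earlier results of these data known. The paper reports Runx1 and Gfi1b as bound by all factors it tested in HP, and Tal1 by nearly all. The gap is therefore a description and gives no independent support.

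**Figure D3:**
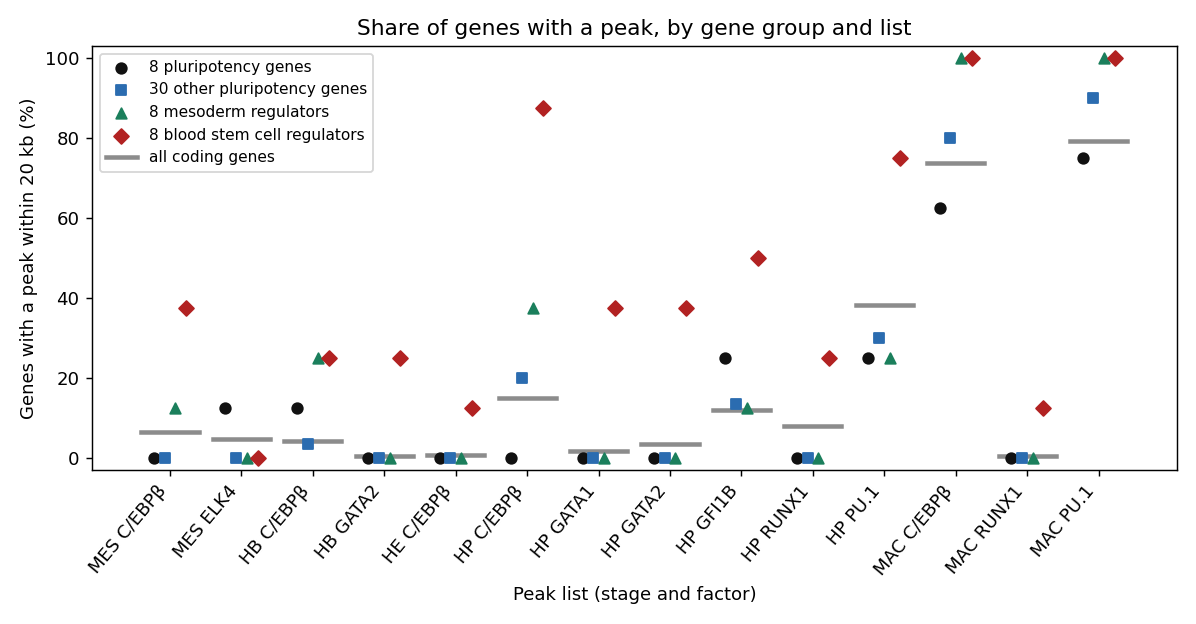
Share of genes with a peak within 20 kb, in percent, for 4 gene groups (symbols) and all coding genes (grey bars) in each of the 14 lists. The 8 pluripotency genes lie at most 14.8 percentage points from the grey bars, at 75% against 79.1% in MAC PU.1 and at 0% against 14.8% in HP C/EBPβ, where the blood stem cell regulators reach 87.5%.

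The distance from the annotated 5′ end of each gene to the nearest peak was also taken, without a window. For MAC C/EBPβ, 7 of the 8 genes were farther from a peak than most coding genes, and between 16.3% and 46.7% of coding genes were farther still. Tbx3 was the exception, with 84.6%. For MAC PU.1 this held for 6 of the 8 genes, with 16.7% to 39%, and the exceptions were Tbx3 with 90.4% and Prdm14 with 53%. In MES, the nearest ELK4 peak was 1.62 kb from Lin28a and 264 kb from Pou5f1, with 98.3% and 79.2% of coding genes farther. At the other 6 genes it was 875 kb or more away, with 2.98% to 58.8% of coding genes farther. In HP, the nearest C/EBPβ peak was 51.9 kb from Lin28a, at Hmgn2, and 136 kb from Nanog. Of coding genes, 80.5% and 62.6% were farther from this list. The HP C/EBPβ peaks nearest to the other 6 genes were 195 kb or more away, with 4.85% to 53.9% of coding genes farther. Prdm14 was the farthest of the 8 genes from both MES ELK4 and HP C/EBPβ. Its nearest MES ELK4 peak was 23813 kb away, and 2.98% of coding genes were farther from this list, and for HP C/EBPβ the values were 2801 kb and 4.85%. In 5 lists, HB C/EBPβ, HB GATA2, HE C/EBPβ, HP GATA1 and MAC RUNX1, the nearest peak to Pou5f1 was at the same place, 725 kb downstream beside Rpp21. In these lists 57.7% to 95.1% of coding genes were farther from a peak.

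**Figure D4:**
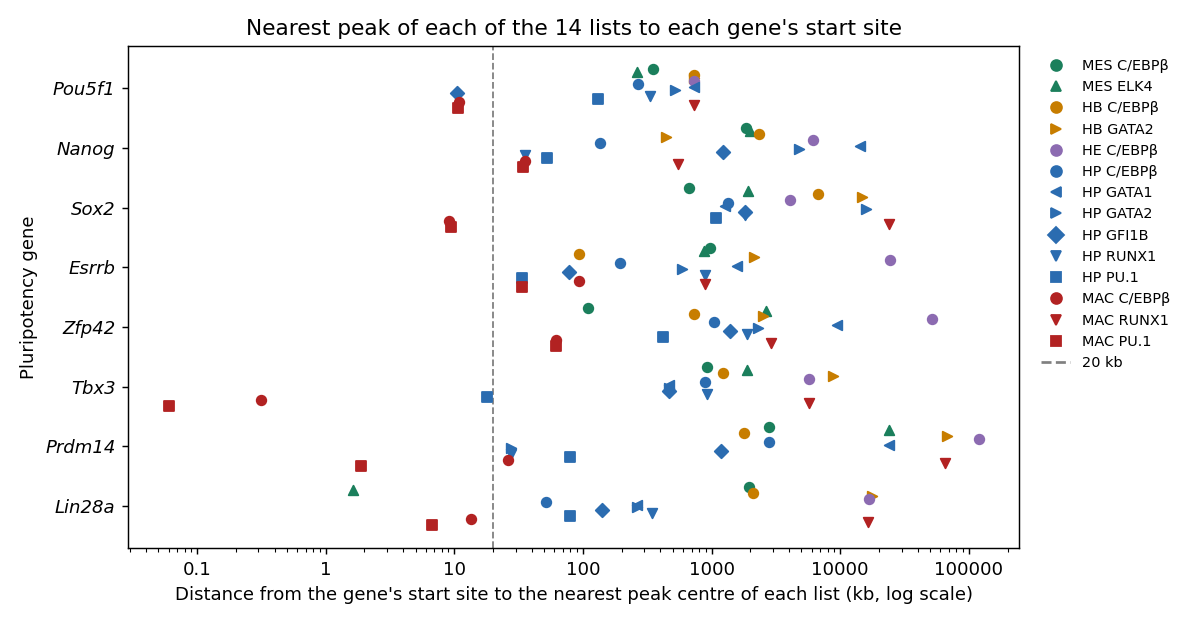
Distance in kb, on a log scale, from the annotated 5′ end of each gene to the nearest peak centre of each list; color gives the stage, the symbol the factor, and the dashed line 20 kb. MAC PU.1 is among the 2 closest lists at every gene, MES ELK4 is the closest at Lin28a (1.62 kb), and no list comes within 20 kb of the annotated 5′ end of Nanog, Esrrb or Zfp42, internal start sites of Esrrb not being counted.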

How the data were processed

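The authors removed adapters with CutAdapt, aligned reads to mm10 (GRCm38) with Bowtie, and kept unique, non-duplicate reads (Picard). MACS peaks, called over the stage's input at a p-value cutoff set by eye for each list, were refined with polyPeak and set to 400 bp around the summit. Some libraries combined technical sequencing runs. For MES C/EBPβ, HB C/EBPβ, HB GATA2 and MAC RUNX1 the paper lists no enrichment by quantitative PCR before sequencing. Mouse mRNA and histone 2B were added as carriers to the HE samples. The submitters' processing notes also name bedtools. Tool versions are not given in the sources used here. What the authors deposited is a chromosome, start and end per peak, without counts, heights or scores, and sequencing depth was not used here.

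From these positions, peaks overlapping a gene window were counted for all 21774 coding genes of the main chromosomes (RefSeq, GRCm38.p6), and peaks were merged where they overlapped by at least 1 bp. The nearest gene was that of the closest coding transcript start site, predicted transcripts included. Each list was read against its own background. The scripts (Python 3.11.15, NumPy 2.4.6, SciPy 1.17.1, Matplotlib 3.10.9) were tested on simulated data. The genes, comparison lists and consensus letters were chosen with earlier results of these data known. Beyond the 8 genes, named were neighbours owning or containing a peak, genes of the comparison lists with a peak outside the MAC PU.1 and MAC C/EBPβ lists, and up to 5 with the most lists. Genes named for a peak beyond the windows were chosen after their values were seen. The alternatives tried were windows of 0, 10 and 50 kb, the peak centre in the window, leaving out regions bound in 8 or more lists, the nearest start site of any annotated gene, other backgrounds, a 200 bp overlap, the central 200 bp for consensus matches, curated transcripts only, the first 50% of each list and leaving out Esrrb. Promoter sequences of RefSeq matched 6 of the 8 genes, by symbol. A stricter cutoff by the authors would have shortened a list, and its effect was not tested.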

Additional observations from a re-analysis of the deposited data

How the results depend on the processing

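The counts depended on the width of the window and on how much of each list was used. With the gene span alone (0 kb), 10 combinations and 15 peaks remained of 17 and 28, ELK4 in MES went from 1 gene to 0, HP GFI1B and HP PU.1 from 2 to 1 each, MAC C/EBPβ from 5 to 3, and the 30 other pluripotency genes from 71 to 36 combinations. With 0 kb the shares of coding genes with a peak were 2.1% for MES ELK4, 5.72% for HP GFI1B and 20.2% for HP PU.1. With 50 kb there were 67 peaks, and lists with none gained genes: HP C/EBPβ 1, HP GATA2 1 and HP RUNX1 2. The shares of coding genes at 50 kb were 23.4%, 5.69% and 12.4% for these lists. The first 50% of each list in file order, an alternative chosen after seeing the data, as was leaving out Esrrb, gave 8 combinations and 12 peaks. An overlap of at least 200 bp left 2 of the 5 MAC C/EBPβ peaks on MAC PU.1 peaks. The background of MAC PU.1 (79.1%) was 62.6%, 75.2% and 84.1% with 0, 10 and 50 kb, 67.4% over all annotated genes and 48% over genome tiles as long as the median window. That of MAC C/EBPβ (73.8%) was 51.5%, 67.9% and 81.2%, then 61.4% and 42%. The backgrounds of the other 12 lists also moved, for example that of HP PU.1 (38.2%) to 20.2% with 0 kb and 15.8% over genome tiles. The other 98 values computed for the counts and shares under alternatives moved by at most 1.5 times or within their interval.

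No paired analysis was possible because each factor and stage had 1 list. Limits: from positions alone, an absent peak cannot be told from weak binding under the threshold, and 8 genes give coarse shares.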

Other observations

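Just beyond the 20 kb windows lay further peaks at 7 of the 8 genes. Between 20 and 50 kb there were 39 peaks, and for 17 the nearest coding gene was the pluripotency gene itself. Of the 39, 33 came from MAC PU.1 and MAC C/EBPβ, whose lists hold 82866 and 55471 of all 158488 peaks. Upstream of Prdm14, HP GATA2 (chr1:13154429-13154828) and HP RUNX1 (chr1:13154452-13154851) had peaks on the same place, 27.5 kb from its start site, and MAC C/EBPβ a peak at 26.2 kb. Prdm14 was the gene with the nearest start site, but the place is an intron of Ncoa2, a nuclear receptor coactivator gene that covers the upstream side of Prdm14. Of coding genes, 97.2% were farther from an HP GATA2 peak and 93% from an HP RUNX1 peak. Between 20 and 50 kb from Prdm14 there were 7 peaks, all in Ncoa2. Around Nanog the same zone held 11 peaks, of which 1, a MAC PU.1 peak 37.9 kb upstream (chr6:122669429-122669828), had Nanog as the nearest gene. The other 10 were in Slc2a3, several of them only in an intron of a predicted transcript, such as the HP PU.1 peak 21325 bp from the nearest Slc2a3 start. Tbx3 had 6, all nearest to Tbx3, among them an HP PU.1 peak 62.7 kb downstream of its start site (chr5:119733049-119733448) with a MAC PU.1 peak on it. This HP peak lay about midway between genes, 62015 bp from a Tbx3 start site and 63266 bp from that of Tbx5, which may also own it. Zfp42 had none out to 50 kb.

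Among the 30 other pluripotency genes, 15 had a peak outside the MAC PU.1 and MAC C/EBPβ lists, and apart from 1 HB peak these were all in HP. By combination of gene and list outside those lists, 5.56% had a peak, against 7.88% for coding genes. The shares by list are given beside those of all coding genes. HP C/EBPβ had peaks at Klf2, Klf5, Sall4, Lefty1, Lefty2 and Stat3 (20%, against 14.8% of coding genes). HP GFI1B had peaks at Klf2, Tet1, Otx2 and Mycn (13.3% against 11.8%), with that of Mycn 83 bp and that of Klf2 238 bp upstream of the annotated start. HP PU.1 had peaks at Klf5, Nr5a2, Fgf4, Lefty1, Nodal, Gdf3, Pou3f1, Stat3 and Lin28b (30% against 38.2%). Lin28b, the paralogue of Lin28a, had 12 peaks in 3 lists, including 3 of HP PU.1, in a window of 150 kb. Lin28a had 6 peaks, none of them from HP, in a window of 55.9 kb. Lefty2, an inhibitor of NODAL signalling, had C/EBPβ peaks 4.21 kb upstream in HB (chr1:180888702-180889101) and 4.17 kb upstream in HP (chr1:180888736-180889135). The HP PU.1 peak at Gdf3 was nearest to Apobec1, the HP C/EBPβ peak at Lefty1 to Tmem63a, and 1 of the 2 HP PU.1 peaks at Stat3 to Stat5a. Nr0b1 was the only one of the 30 with no peak.

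In most lists the sequence under the peaks varied with the order of lines in the deposited lists, which is not explained in the sources used here. In 13 of the 14 lists the first 25% of lines held the factor's own consensus more often than the last 25%, for example 51.8% and 36.3% for HP PU.1 and 32.6% and 19% for MAC PU.1. MES ELK4 was the exception, with 9.92% in both, and HB GATA2 was nearly even, with 8.33% of 24 peaks and 8% of 25. Of the 28 peaks at the pluripotency loci, 16 were in the last 50% of their list.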
